A study of Mus musculus with 18 samples.

Results

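A small class of dermal fibroblasts with high Cilp was examined in single-cell RNA sequencing data from mouse back skin. Members were chosen by their own measured UMIs (unique molecular identifiers, each counting 1 captured transcript). A member had 850 to 7800 detected genes, under 13% mitochondrial UMIs, at least 20 UMIs of Col1a1, Col1a2 and Col3a1 together and no UMI of the leukocyte gene Ptprc. It also had at least 2 UMIs of Cilp and at least 1 UMI of 2 or more of the 4 genes Thbs4, Fmod, Angptl7 and Cpxm2. Of 23990 deposited barcodes, 16877 passed the limits on genes and mitochondrial UMIs, 12564 of these met the collagen and Ptprc limits and are called fibroblasts, and 252 were members. The members, called Cilp fibroblasts below, were 2.01% of the fibroblasts and 1.49% of all kept cells. The other 12312 fibroblasts of the same libraries served for comparison.

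The cells came from the dorsal dermis of 18 wild-type C57BL/6J males, about 54 days old, whose hair follicles were in the resting phase and which lived under 12 h of light and 12 h of darkness. Zeitgeber time (ZT) counts the hours from lights on, and 3 mice were collected at each of ZT2, ZT6, ZT10, ZT14, ZT18 and ZT22, with 1 droplet library per mouse. No mouse carried a transgene or received a treatment, so the mice differed by design in time of day and, within a time, in the day of collection. The skin was scraped free of fat, digested with collagenase, and live cells were sorted with a viability dye.

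Dermal fibroblasts make and remodel the collagen, elastic fibers and proteoglycans of skin, and they differ between the upper dermis, the lower dermis, hair follicles and fascia. CILP, first described in cartilage, is a secreted matrix protein that can bind TGF-beta. Thrombospondin-4 and fibromodulin belong to the matrix of tendon, where fibromodulin binds collagen fibrils, and matrix Gla protein (Mgp) is an inhibitor of calcification. In many tissues an internal clock of transcription factors drives genes with a period of about 24 h: BMAL1 (gene Arntl) and CLOCK activate genes such as Dbp and Nr1d1, and REV-ERB alpha (Nr1d1) represses Arntl.

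Members were found in all 18 libraries, but unevenly. The number per library was lowest in replicate 3 of ZT22, with 1 cell, and highest in replicate 2 of ZT10, with 36, and the median was 10.5. Only 10 libraries held 10 or more members, 202 cells in all, and the gene levels below come from these unless stated otherwise: replicates 1 and 3 of ZT2, 1 and 2 of ZT10, 1 to 3 of ZT14, 3 of ZT18, and 1 and 2 of ZT22. No ZT6 library reached 10 members. In these 10 libraries the members together gave 244031 to 660159 UMIs per library and the other fibroblasts 8593579 to 33288582. The median member had 19397 UMIs, against 21946.5 in the other fibroblasts, and the members' median was the lower in 17 of 18 libraries for UMIs and in 18 of 18 for detected genes. The median mitochondrial share was lower in the members in 8 of 18 libraries.

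The libraries of ZT6 replicate 2 and ZT10 replicate 3 shared 89 cell barcodes, while the median pair of libraries shared 0. The shared barcodes had a median of 553 UMIs in ZT6 replicate 2, where none passed the filter, and 30446 in ZT10 replicate 3, where 1 of them was a member. Neither library is among the 10 used for gene levels, and no member's barcode was kept in a second library.

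The share of Cilp fibroblasts among fibroblasts was 2.59%, 0.626% and 1.90% in replicates 1 to 3 of ZT2, and 1.03%, 3.65% and 1.18% in those of ZT6. It was 5.02%, 3.64% and 1.90% at ZT10, 3.68%, 2.83% and 1.27% at ZT14, 4.55%, 2.30% and 1.86% at ZT18, and 1.25%, 2.05% and 0.257% at ZT22. The mean was highest at ZT10, 3.52% ± 1.56 (SD, n = 3), and lowest at ZT22, 1.19% ± 0.897 (SD, n = 3), and the ranges of neighboring times overlapped. A 24 h cosine fitted to the logit of the share peaked at 12.3 h with an amplitude of 0.476 on the logit scale. This did not pass the test (permutation test over 18 libraries, 100000 draws, p = 0.107). Without replicate 3 of ZT14 the permutation p was 0.0455, and it was 0.0419 with the looser rule of at least 1 Cilp UMI and 1 of the 4 other genes. A share of 1 library had a wide counting interval: in ZT18 replicate 1, 5 of 110 fibroblasts were members, with a 95% Wilson interval of 1.96% to 10.2% that covers counting error only.

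**Figure D1:**
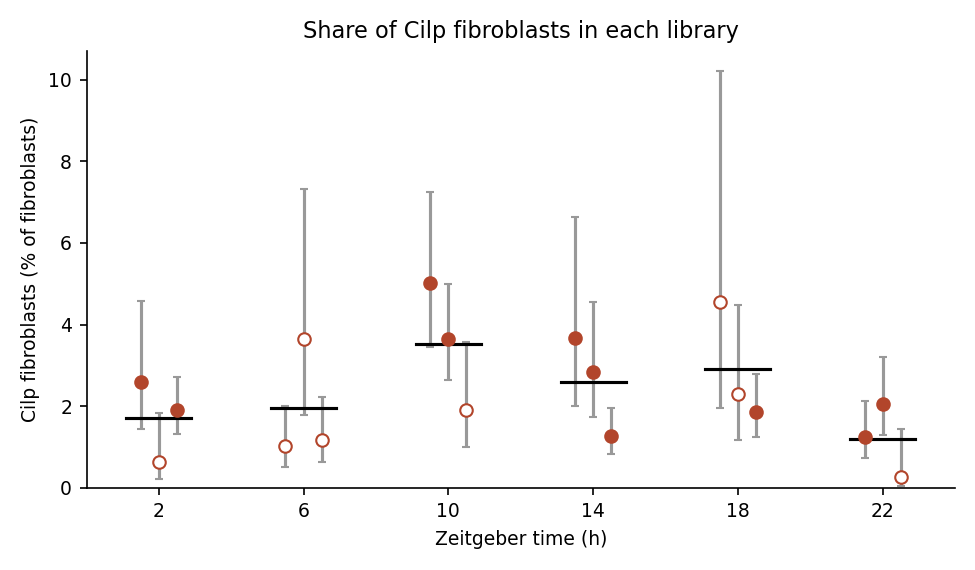
Share of Cilp fibroblasts in percent of fibroblasts (y axis) for each of 18 libraries at its zeitgeber time (x axis, hours); bars are 95% Wilson intervals for counting error, black lines the mean of 3 libraries, and filled points the 10 libraries with 10 or more members. The means run from 1.19% at ZT22 to 3.52% at ZT10, with overlapping libraries.

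The values that chose the members are given as a description. The median member held 48 Cilp UMIs and the highest 191; 242 of 252 members had 5 or more and 6 had exactly 2. Cilp (chromosome 9, 65265180 to 65280605, plus strand, mm10) was at 13.4 to 35.1 UMIs per 10000 in the members, with a median of 28.6, and at 0.115 to 0.829 in the other fibroblasts. It was lowest in the members of ZT22 replicate 1 and otherwise stood between 24.6 and 35.1. Of the 4 other genes, Cpxm2 (chromosome 7, 132032687 to 132154739, minus strand), a member of the carboxypeptidase family, was found in 240 of 252 members. Thbs4 (chromosome 13, 92751590 to 92794818, minus strand) was found in 139, Angptl7 (chromosome 4, 148495183 to 148500460, minus strand), a secreted angiopoietin-like protein, in 138 and Fmod (chromosome 1, 134037254 to 134048277, plus strand) in 133. All 4 were seen together in 38 members, 3 of them in 70 and 2 in 144, so the label's Thbs4 and Fmod each marked little more than every other member.

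At the edge of the rule, the 6 members with exactly 2 Cilp UMIs had Mgp at 12.6 and Mfap4 at 0.191 UMIs per 10000. Outside it, 199 fibroblasts had enough Cilp but 1 of the 4 other genes, and they had Cilp at 12.97, Mgp at 9.79 and Mfap4 at 8.50, against 28.9, 19.8 and 24.3 in all members. A further 5 fibroblasts had 1 Cilp UMI and at least 2 of the 4. Another 56 had at least 2 of the 4 but no Cilp UMI. They had Mgp at 2.40, Mfap4 at 4.21 and Col1a1 at 1040, with Col1a1 at 183.7 in all members. The 199 cells thus carried Cilp, Mgp and Mfap4 at lower levels than the members. Fmod was nearly absent in them, at 0.0166 against 4.26. Thbs4 was at 1.09 against 4.66, Angptl7 at 0.520 against 3.65 and Cpxm2 at 1.725 against 5.19. The limit of 1 of these 4 genes holds their levels down in the 199 cells.

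Mgp (chromosome 6, 136872435 to 136875823, minus strand) and Mfap4 (chromosome 11, 61485431 to 61488900, plus strand), a microfibril protein of elastic fibers, were named as markers of the class but were not part of the rule. Mgp was at 9.61 to 33.9 UMIs per 10000 in the members, with a median of 18.6, and at 0.238 to 1.19 in the other fibroblasts. Mfap4 was at 14.1 to 34.95, with a median of 22.7, against 0.172 to 0.685. No library of either class overlapped with the other for these genes. At least 1 Mgp UMI was seen in 95.6% of members, 6.73% of other fibroblasts and 1.82% of the 3018 Ptprc-positive cells low in collagen (immune cells below), and Mfap4 in 88.5%, 6.48% and 1.39%. The median depth was 19397 UMIs in the members, 21946.5 in the other fibroblasts and 11345.5 in the immune cells. After thinning every cell to 5000 UMIs, which 244 members reached, the Mgp shares were 92.2%, 4.07% and 0.965%.

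Markers of neighboring cell types were checked for the label. The general fibroblast list (Col1a1, Col1a2, Col3a1, Dcn, Lum, Pdgfra) was detected whole, with a summed level of 426 to 1050 UMIs per 10000 in the members and 632 to 1104 in the other fibroblasts. The rule required the collagens of this list in both classes, so the sum is a description and no check of the label. Without them, the median log2 ratio of the other 3 genes was 0.42. Of the tenocyte list, Tnmd (chromosome X, 133850980 to 133865577, plus strand), a membrane protein of tendon cells, was at 0.367 to 2.78 in the members and 0.0628 to 0.915 in the other fibroblasts, and 36.5% of members had a UMI against 5.32% of others and 0.398% of immune cells. The 3 tenocyte markers Scx, Mkx and Tnmd summed to 1.47 UMIs per 10000 in the median library, almost all of it Tnmd. Comp, the cartilage and tendon thrombospondin, was found with 1 UMI in 1 of 252 members. The chondrocyte list was near 0, with 13 UMIs in all members, 11 of them Sox9, and Acan at 0.

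Other cell types left few UMIs in the members. No adipocyte marker had a UMI, Krt5, Krt14, Krt15 and Krt1 were at 0 among keratinocyte markers, Sox10 and Cdh19 at 0 among Schwann cell markers, and Corin, Alx4, Sox18 and Rspo4 at 0 among dermal papilla markers. The endothelial list was higher in the members than in the other fibroblasts in 10 of 10 libraries, 0.343 against 0.0322 UMIs per 10000 at the median. This was Kdr, with 184 of its 197 UMIs, while Tie1 and Fabp4 were at 0. The pericyte list was also higher in 10 of 10 libraries, 1.02 against 0.423, led by Abcc9, a potassium channel subunit, with 277 of 571 UMIs. Kcnj8 of this list was higher in 10 of 10 libraries as well. Des went the other way, lower in the members in 9 of 10 (mean 0.128 against 0.272), and Myh11 had 1 UMI in the 10 libraries. Of the perineurial list, Cldn1, Tenm2 and Sfrp5 were at 0, but the list was higher in the members in 6 of 10 libraries, 0.131 against 0.0853 at the median and up to 0.779, with Lypd2 at 86 of its 111 UMIs. The part of such cells in the results was not tested. Immune markers summed to 0.147 against 0.229, and skeletal muscle markers to 0.171 against 0.347. None of the 3018 immune cells met the marker part of the rule (Cilp and 2 of the 4 other genes together), which allows a share of up to 0.0994%, and 21 of them (0.696%) had a Cilp UMI.

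Red blood cell RNA was uneven. The 4 hemoglobin genes summed to 62.2 UMIs per 10000 in the members of ZT22 replicate 2 and to 0.0974 to 5.42 in the other 9 libraries. A single member of that library held 1416 of the 2121 Hbb-bs UMIs of all members.

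Against the other fibroblasts, 3114 genes reached a mean of 0.5 UMIs per 10000 in either class. The log2 ratio of members to others was averaged over the 10 libraries, with 0.1 added to each level, and its median over all these genes was -0.02. By size alone, 205 genes (6.58%) were higher in the members by 2-fold or more in the mean and higher in every library, and 184 genes (5.91%) were lower by the same rule. Levels of the classes did not overlap for 157 of the 205 and 152 of the 184. The choice of genes by size and sign favors such separation, here and among the named genes below. Its share over all 3114 genes is not given. The cells were divided by their own counts, so the differences between the classes carry no test. The level filter also favors such genes: 129 of the 205 reached 0.5 in the members only and 109 of the 184 in the other fibroblasts only, so these could come out on 1 side only. The counts and medians of the lists below hold such genes too and describe the measured members alone.

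The 20 genes with the highest ratio among those that reached 2 UMIs per 10000 included 5 genes of the rule. Besides these, Mfap4 had a log2 ratio of 5.66 ± 0.55 (SD, n = 10), Mgp 5.08 ± 0.83 and Hmcn2 (chromosome 2, 31314415 to 31460738, plus strand), a hemicentin of basement membranes, 4.58 ± 0.50. Hmcn2 was at 3.90 to 11.1 UMIs per 10000 in the members and at 0.0421 to 0.438 in the others. Col8a1, a short-chain collagen, followed with 4.02 ± 1.07, Fxyd6, a regulator of the sodium pump, with 3.98 ± 0.52, the secreted C1qtnf3 with 3.84 ± 0.84 and Angptl1 with 3.67 ± 0.42. F3, the tissue factor that starts blood clotting, was at 5.33 to 10.2 in the members and 0.271 to 0.791 in the others. Ltbp4 (3.56 ± 0.35), which holds latent TGF-beta in the matrix, the chemokine Cxcl14 (3.46 ± 0.59), Ccn2 (3.46 ± 0.58), a target of TGF-beta signaling, and biglycan (Bgn, 3.44 ± 0.37) came next. Fibin (3.27 ± 0.53), Myoc (3.24 ± 0.78) and Ccn5 (3.24 ± 0.61) completed the 20. Col8a1 alone among the 20 had overlapping levels, since ZT22 replicate 1 held 0.147 in the members, below the highest library of the others at 0.237.

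The 10 genes with the lowest ratio, again among those that reached 2 UMIs per 10000 in either class, were low in the members. Smpd3, a sphingomyelinase, was at 0 to 2.15 UMIs per 10000 with a median of 0.120, against 10.0 to 20.1 in the other fibroblasts (log2 ratio -5.71 ± 1.40). Cxcl13, a chemokine for B cells, was at 0 to 0.0803 against 1.66 to 9.24 (-4.94 ± 0.61). Igfbp4, which binds insulin-like growth factors, was at 0.0271 to 3.19 against 11.2 to 20.1 (-4.80 ± 1.58). The others were Sbsn (-4.37 ± 1.12), the protein C receptor Procr (-4.28 ± 0.41), Efhd1 (-4.13 ± 0.46), the retinoic acid enzyme Aldh1a3 (-4.03 ± 0.67), the phospholipase Pla1a (-3.91 ± 0.69), Akr1c18 (-3.72 ± 0.89) and Efemp1 (fibulin-3, -3.61 ± 1.24). None of the 10 overlapped between the classes. The SD was above 1 for Smpd3, Igfbp4, Sbsn and Efemp1, and how much of this spread is counting error at these few UMIs was not tested.

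**Figure D2:**
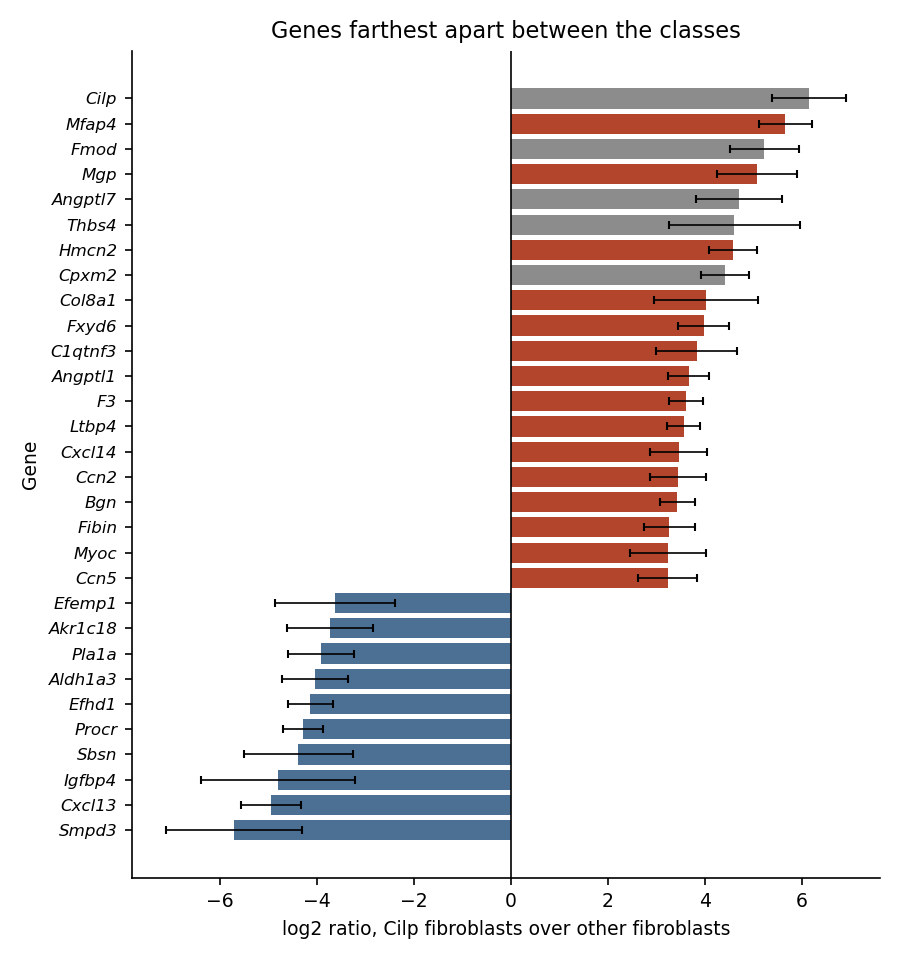
Mean log2 ratio of Cilp fibroblasts to other fibroblasts (x axis) for the 20 highest and 10 lowest named genes (y axis), with SD over 10 libraries as error bars; gray bars are genes of the rule. The bars run from -5.71 for Smpd3 to 6.15 for Cilp.

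Of 14 small leucine-rich proteoglycans, 10 were measured and 8 were higher in the members: Fmod, which the rule used, Bgn, Podn, Ecm2, Aspn, Lum, Omd and Prelp. Of all 3114 genes, 6.58% were higher and 5.91% lower. The median log2 ratio of the list was 1.61, against -0.02 for all genes, and 1.35 without Fmod. Decorin (Dcn), higher in 10 of 10 libraries, had a ratio of 0.42 ± 0.18 and stayed under the size rule. Of 18 measured elastic fiber genes, 8 were higher and 5 lower, with a median of 0.40, and 4 of the 8 and 1 of the 5 reached the level filter in 1 class only. Those higher included Mfap4, Ltbp4, the crosslinking enzyme Lox (3.15 ± 0.46) and elastin itself (Eln, 6.08 to 44.0 UMIs per 10000 against 1.49 to 3.14). Those lower were Efemp1, Ltbp1 (-3.35 ± 0.64), Emilin2, Mfap5 and Loxl1. Genes of this list thus stood on opposite sides, such as Ltbp4 against Ltbp1 and Mfap4 against Mfap5.

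Of 17 measured collagen chains, 5 were higher and 0 lower, beside 6.58% and 5.91% of all genes. The median ratio was 0.59, or 0.84 without the 3 of the rule. Of the 5, 2, Col8a1 and Col15a1, reached the filter in the members only. The 5 were Col8a1, Col12a1 (2.36 ± 0.59), Col15a1 (2.29 ± 0.35), Col4a2 and Col4a1. The fibrillar chains of the rule were not higher, with Col1a1 at a ratio of -0.33 ± 0.54, Col1a2 at -0.29 ± 0.42 and Col3a1 at -0.72 ± 0.28, and Col3a1 was lower in 10 of 10 libraries. Of 13 measured genes of collagen crosslinking and hydroxylation, 1 was higher (Lox) and 1 lower (Loxl1), with a median of 0.23. Of 10 measured metalloproteinases and inhibitors, 0 were higher and 3 lower, Mmp3 (-2.94 ± 1.26), Adamts5 (-1.47 ± 0.62) and Adamtsl4, with a median of -0.81.

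Of 4 measured thrombospondins, 3 were higher (Thbs4, Thbs1 at 3.06 ± 1.29 and Thbs2 at 1.32 ± 0.55), beside 6.58% of all genes. The median was 2.19, or 1.32 without Thbs4. Of 10 measured tendon and fascia genes, 5 were higher, and 3 of these, Fmod, Angptl7 and Thbs4, belong to the rule. The others were Col12a1 and Tnmd, and the median without the genes of the rule was 0.82. Only 2 of 17 cartilage matrix genes reached the level filter, Cilp and Mgp. Of the calcification list 3 of 10 genes were measured, and Mgp and Gas6 (2.96 ± 0.21), a ligand of TAM receptors, were higher. Gas6 was at 8.91 to 12.8 UMIs per 10000 in the members and 0.903 to 1.63 in the others, with no overlap.

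Signaling genes were divided, and their counts stand beside 6.58% of all genes higher and 5.91% lower. Of 12 measured genes of the TGF-beta list, Ccn2, Tgfbi (2.14 ± 0.49) and Skil (1.41 ± 0.50) were higher and the ligand Tgfb2 (-2.05 ± 0.67) lower, with a median of 0.56. Of 8 BMP and GDF genes, Gdf10 (-2.61 ± 0.56) and Bmp3 (-1.76 ± 0.79) were lower (median -0.12). Of 9 genes of the IGF axis, Igfbp7 (2.40 ± 0.24) and the growth factor Igf1 (2.19 ± 0.46) were higher and Igfbp4 lower (median -0.12). Igf1 was at 4.47 to 16.4 UMIs per 10000 against 1.04 to 3.39. Of 8 Wnt modulators, Sfrp1 (1.81 ± 0.30) and Sfrp4 (1.62 ± 0.50) were higher and Wnt2 (-3.25 ± 0.53), Rspo3 (-2.35 ± 0.61), Sfrp2 (-1.93 ± 1.19) and Wnt5a (-1.80 ± 0.76) lower, with a median of -1.39. Of 6 carboxypeptidases, Cpe and Cpxm2, which the rule used, were higher and Cpz (-3.11 ± 0.80) and Cpxm1 lower (median -0.42, or -0.49 without Cpxm2). Of 5 angiopoietin-like genes, Angptl1 and Angptl7, which the rule used, were higher and 0 lower (median 0.24, or 0.16 without Angptl7).

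Genes that mark other dermal fibroblasts were compared in the same way, again beside 6.58% of all genes higher and 5.91% lower. Of 10 Pi16 progenitor-like genes, 0 were higher and 8 lower, with a median of -1.53. These included Procr, Sema3e (-3.81 ± 0.38), Cd248 (-2.33 ± 0.43) and Pi16 itself, which at 9.18 to 28.0 UMIs per 10000 was lower than the 42.8 to 76.6 of the other fibroblasts but was still seen in 94.4% of members, against 96.0% of other fibroblasts and 35.5% of immune cells. Krtdap, Dmkn and Sbsn were all lower (3 of 3, median -3.58). Of 6 genes of the Cxcl14 Gdf10 list, 5 were higher (Hmcn2, Cxcl14, Apod at 2.47 ± 0.49, Smoc2 at 2.34 ± 0.33 and Lpl) and Gdf10 was lower, with a median of 2.40. Of the Sult1e1 Inmt list, the glutathione peroxidase Gpx3 (1.59 ± 0.31) was higher and the sulfotransferase Sult1e1 (-2.90 ± 0.99) lower, of 4 measured (median 0.50). Of the Cthrc1 Tnmd list, 1 of 3 measured genes, Tnmd, was higher (median -1.05). Of 13 receptor and surface genes, Cd9 (2.77 ± 0.36), Cdh11 (2.64 ± 0.44) and Itgbl1 (2.37 ± 0.26) were higher and Ddr2 (-1.57 ± 0.20) lower (median 0.29).

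Of 12 measured immediate early genes, which respond within minutes to stimuli including tissue digestion, 8 were higher in the members and 0 lower, with a median of 1.22. Among all genes, 6.58% were higher and 5.91% lower. Fos was at 32.5 to 93.9 UMIs per 10000 in the members and 14.6 to 26.4 in the other fibroblasts, with no overlap, and Egr1 at 13.8 to 49.6 against 5.50 to 13.5. Both classes went through the same digestion in each library, and the part of cell handling in this difference was not tested. Of 10 measured complement genes, clusterin (Clu, 1.79 ± 1.18) was higher and C3 (-2.78 ± 0.60) and Cd55 (-1.78 ± 0.41) lower, with a median of -0.12. Of 5 hyaluronan genes the synthase Has2 (-1.46 ± 0.68) was lower and 0 were higher (median 0.08). Inflammatory fibroblast genes (8 measured, median -0.46) and interferon-stimulated genes (6 measured, median -0.40) held 0 genes on either side, and no cell cycle gene reached the level filter. Of 9 measured clock genes, Bhlhe40 (2.64 ± 0.70) and Hlf (1.40 ± 0.41) were higher and 0 lower (median 0.42).

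**Figure D3:**
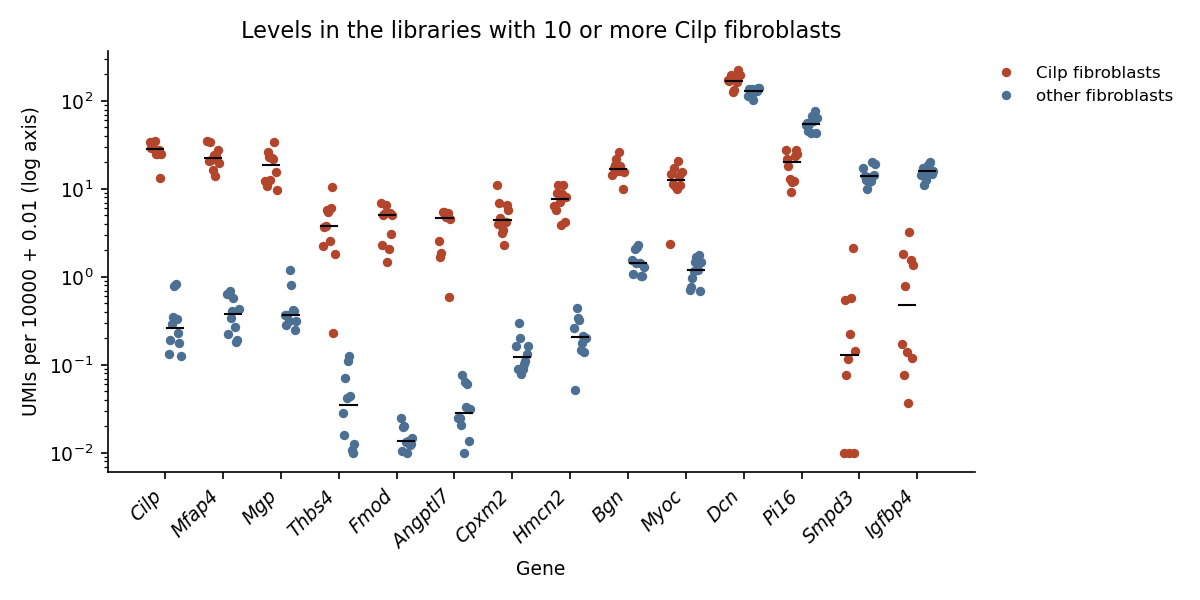
Levels in UMIs per 10000 plus 0.01, on a log axis (y), of 14 genes (x axis) in each of the 10 libraries with 10 or more Cilp fibroblasts; red points are Cilp fibroblasts, blue points other fibroblasts and black lines medians. Marker levels of the classes lie apart, from Cilp at 13.4 to 35.1 against 0.115 to 0.829, while Dcn overlaps and Smpd3 lies the other way.

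The members were not uniform. Thbs4 without Angptl7 was seen in 87 members and Angptl7 without Thbs4 in 86, in 17 libraries each, while 52 had both and 27 neither. These subsets were formed after the values had been seen, on genes of the rule, and an absent UMI at this depth does not show that a transcript was absent. Of the libraries, 8 had at least 3 cells of both subsets. Cilp was at 33.98 UMIs per 10000 in the Thbs4 cells and 20.1 in the Angptl7 cells, and it was the higher in the Thbs4 cells in 8 of 8 libraries. Mgp (18.5 and 18.8) and Mfap4 (20.5 and 19.6) were close in the pooled sums, although both were lower in the Thbs4 cells in 6 of 8 libraries.

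Examples from both ends of this comparison follow, chosen after their values were seen. In the Thbs4 cells, Col4a1 was at 8.81 UMIs per 10000 against 2.60, Col6a3 at 16.0 against 5.11, Col15a1 at 4.33 against 1.30 and Col5a3 at 3.07 against 0.830, each higher in 8 of 8 libraries. Col4a2 and Col8a1 were higher in 7 of 8, and Col1a1, at 174 against 140.5, in 5 of 8. Tenascin C (Tnc), a matrix protein of tendon and wounds, was at 2.58 against 0.153 and higher in 7 of 8 libraries. The Angptl7 cells had more Sfrp2, a Wnt modulator (13.8 against 0.994, in 7 of 8 libraries), Pi16 (33.1 against 7.56), Id3 (14.3 against 3.87), Chrdl1, a BMP antagonist (4.52 against 0.942), and Dpp4 (4.29 against 1.48), the last 4 in 8 of 8. Hbb-bs, at 9.66 against 1.33, was higher in the Thbs4 cells in 5 of 8 libraries. The chemokine Cxcl5 came from 1 cell of ZT14 replicate 1, which held all 696 UMIs.

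A 24 h rhythm was then tested in the summed UMIs of the members, for which the rule used no time of day. The test was edgeR's quasi-likelihood test of a cosine and a sine term with Benjamini-Hochberg adjustment over all genes tested. Amplitude is the fitted height of the cosine above its mean on the log2 scale, so peak and trough lie 2 amplitudes apart. Of 5471 genes tested, 31 (0.567%) were called at an adjusted p under 0.05, and 663 had an unadjusted p under 0.05. In the other fibroblasts of the same 10 libraries, 300 of 13222 genes (2.27%) were called by the same test. Those sums hold far more UMIs, so the numbers of calls do not compare the classes. Of the 31 genes, 17 peaked between 6 and 18 h and 14 in the other hours, with amplitudes of 0.65 to 3.68.

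Clock genes were 5 of the 10 calls with the smallest p. Of 15 tested, 8 were called in the members: Dbp, Hlf, Nr1d1, Bhlhe41, Nr1d2, Per3, Tef and Arntl. Dbp (chromosome 7, 45705088 to 45710203, plus strand), a transcription factor and output of the clock, was at 0 and 0.0325 UMIs per 10000 in the ZT2 libraries and at 3.44 and 3.48 at ZT10. It was at 1.29, 1.22 and 1.04 at ZT14, 0.119 at ZT18 and 0.0367 and 0.0535 at ZT22. No time overlapped with ZT10 or ZT14, and the fitted amplitude was 3.68 (jackknife SE 0.34, n = 10) with a peak at 10.5 h. In the other fibroblasts Dbp had an amplitude of 2.80 and peaked at 10.9 h.

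Nr1d1 (chromosome 11, 98767932 to 98775333, minus strand) was at 2.86 and 1.77 UMIs per 10000 at ZT10, 1.35 and 0.796 at ZT2, 0.826, 0.298 and 0.286 at ZT14, 0.0478 at ZT18, and 0 and 0.0803 at ZT22. Its amplitude was 3.05 (SE 0.57), its peak at 7.17 h and its adjusted p, from edgeR, 0.0017, and in the other fibroblasts it peaked at 8.36 h. Arntl ran the other way, at 0.331 and 0.535 at ZT22, 0 and 0.0152 at ZT10 and 0.082 and 0.406 at ZT2, with a peak at 22.5 h in the members and 22.9 h in the others. Arntl had 88 UMIs in 52 of all 252 members, and 1 cell held 13 of the 20 UMIs of ZT22 replicate 2, so its level rests on few counts. Of the 8, only Dbp, Hlf, Nr1d1 and Bhlhe41 were called with each library left out in turn. Nr1d2 was lost without replicate 2 of ZT10 (edgeR adjusted p = 0.067), and Per3 without replicate 1 of ZT10 (0.054) or replicate 2 of ZT22 (0.051). Tef was lost without replicate 1 (0.073) or 2 (0.071) of ZT10, replicate 1 of ZT2 (0.059) or replicate 2 of ZT22 (0.091). Arntl could be tested in 8 of these 10 fits and was lost without replicate 1 (0.074) or 2 (0.098) of ZT10 or replicate 3 of ZT14 (0.058). In this fit without ZT6, the peaks of all 8 called clock genes were earlier in the members than in the other fibroblasts, by 1.75 h at most. This shared direction was not tested. Over all 18 libraries the members' peaks lay earlier than in their own fit without ZT6 for 6 of the 8. Peaks of the other fibroblasts over the 18 libraries are not given. They were at 9.51 h for Tef, 8.93 h for Per3, 9.35 h for Dbp, 9.94 h for Hlf, 9.36 h for Bhlhe41 and 8.23 h for Nr1d2. That of Nr1d1 was at 7.27 h. None of 17 clock genes tested differed in rhythm between the classes by edgeR (smallest adjusted p = 0.18). A p that misses the threshold does not show equal rhythms.

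Clock genes that were not called in the members were Per2 (amplitude 1.57, edgeR adjusted p = 0.14), Nfil3 (1.24, 0.15), Clock (0.59, 0.35), Cry2 (0.70, 0.36), Rora (0.36, 0.44), Per1 (0.83, 0.45) and Bhlhe40 (0.37, 0.79). Npas2, Cry1 and Ciart had too few UMIs to be tested. In the other fibroblasts 15 of 18 clock genes were called, and the 10 smallest p-values there belonged to Nfil3, Dbp, Tspan4, Per3, Dgat2, Cpeb1, Arntl, Tef, Bhlhe41 and Zdhhc14.

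Outside the clock list, Slc6a6 (chromosome 6, 91684053 to 91759066, plus strand), the taurine transporter, had the smallest p. It was at 1.61 and 2.15 UMIs per 10000 at ZT10, 0.727 to 0.922 at ZT14, 0.334 at ZT18, 0.0735 and 0.214 at ZT22 and 0.123 and 0.406 at ZT2. The ZT10 libraries stood above all others, and the fit gave an amplitude of 1.77 (SE 0.24), a peak at 9.56 h and an edgeR adjusted p of 0.0007. Por, the reductase that passes electrons to cytochromes P450, peaked at 11.2 h with an amplitude of 0.93 (SE 0.11). Arhgap20, a GTPase-activating protein, Dapk1, a death-associated kinase, and the claudin Cldn10 peaked near lights on, at 23.99, 24 and 1.08 h, with amplitudes of 1.77 (SE 0.22), 0.82 (SE 0.07) and 1.16 (SE 0.22). Marcks, an actin-binding substrate of protein kinase C, was at 22.7 and 19.2 at ZT2 and at 7.93 to 9.89 at ZT14, without overlap, with an amplitude of 0.65 (SE 0.09). Its call was lost without replicate 1 of ZT2 (edgeR adjusted p = 0.104), replicate 1 of ZT10 (0.054), replicate 3 of ZT14 (0.064) or replicate 2 of ZT22 (0.052).

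Of the 31 genes, 18 were also called in the other fibroblasts, and Dapk1, Cldn10 and Marcks were among the other 13. For none of these 3 was a difference between the classes called (smallest edgeR adjusted p = 0.13). The remaining called genes were Rnf144a, Tspan4, Ptgis (prostacyclin synthase), Nrcam, Insr (the insulin receptor), Dhrs3, Cacna1g, Ccl2, Peg3, Actn1, Tagln2, Prrx2, Rin2, Fbn2, Creb3l1, Mmp3 and Ppl. With the replicate number as a block, Prrx2, Dhrs3, Peg3, Insr, Actn1, Ppl and Fbn2 were not called. Each of the remaining called genes also lost its call in at least 1 fit with a library left out. Of 10 such fits, Tspan4, Nrcam, Insr and Cacna1g were called in 5, Dhrs3 in 4, Actn1, Rin2 and Creb3l1 in 3, and Peg3, Tagln2, Prrx2 and Ppl in 2. Rnf144a could be tested in 9 and was called in 8. Of all 31 genes, 9 were called in every such fit. By list, beside 0.567% of all genes, the calls were 1 of 18 elastic fiber genes (Fbn2), 1 of 10 tendon and fascia genes (Ptgis), 1 of 13 metalloproteinases and inhibitors (Mmp3), 1 of 7 inflammatory genes (Ccl2), 0 of 10 proteoglycans and 0 of 19 collagen chains. Fbn2 was called in 1 of 10 fits with 1 library left out, that without replicate 2 of ZT14, and had an edgeR adjusted p of 0.46 over all 18 libraries. Ptgis was called in 7 of 10, and lost without replicate 3 of ZT14 (0.062) or replicate 1 (0.065) or 2 (0.071) of ZT22. Lists of this size hold too few genes for these counts to be read against the share of all genes. Mgp (amplitude 0.49, edgeR adjusted p = 0.43) and Mfap4 (0.39, 0.59) were not called. The genes of the rule are given no call, since the choice of cells sets their levels in part.

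**Figure D4:**
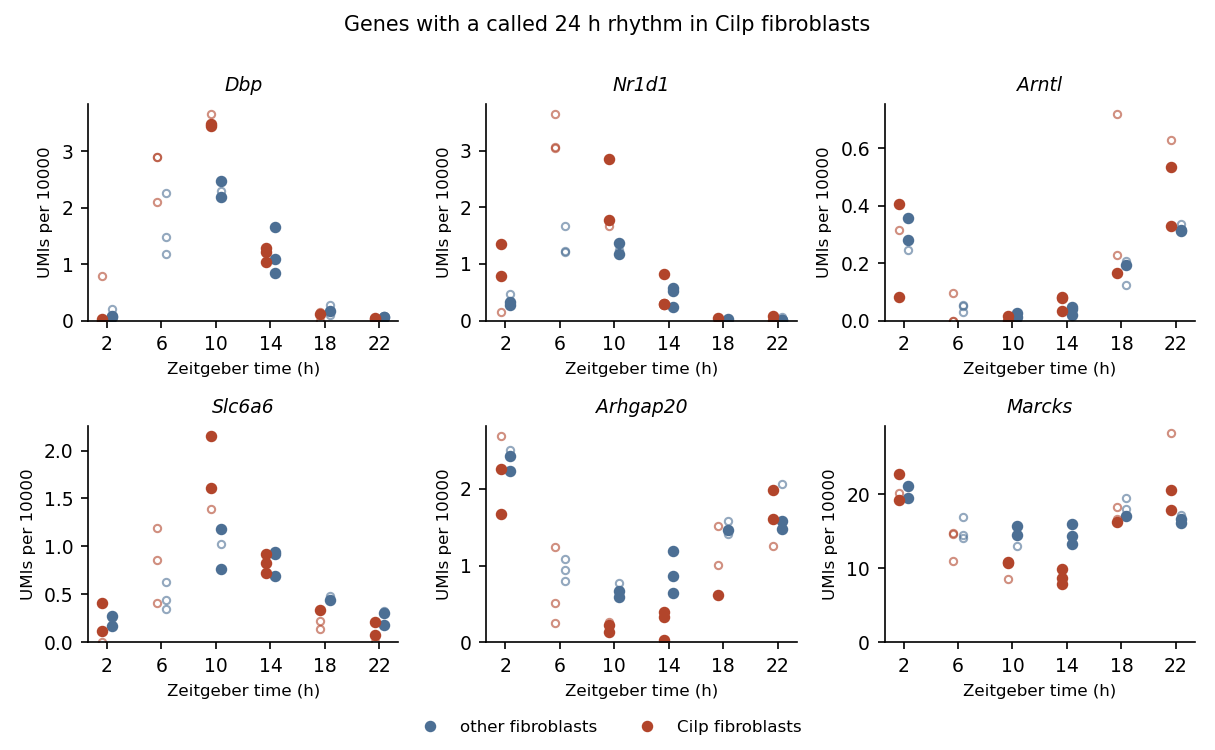
Levels in UMIs per 10000 (y axis) against zeitgeber time in hours (x axis) for 6 called genes in Cilp fibroblasts (red) and other fibroblasts (blue); 1 point is 1 library, filled for the 10 libraries used in the fit and open for those with under 10 members. Dbp in the members is 3.44 and 3.48 at ZT10 and at most 0.0535 at ZT22, and Arntl and Arhgap20 run the other way.

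The first 10 genes of the list were called with each of the 10 libraries left out in turn, except Nr1d2 with 9 of 10. The count was less stable, from 13 without replicate 2 of ZT22 to 36 without replicate 3 of ZT2, and 14, 15, 15 and 16 without replicate 1 of ZT10, ZT2 and ZT22 and replicate 3 of ZT14. Over all 18 libraries, ZT6 and its 24 members included, 29 of the 31 were tested and 21 were called, among 54 calls in all. The 8 not called there were Cldn10, one of the first 10 (edgeR adjusted p = 0.053), Dhrs3, Tagln2, Prrx2, Fbn2, Creb3l1, Mmp3 and Ppl. At ZT6 Dbp was at 2.90, 2.10 and 2.90 UMIs per 10000 and Nr1d1 at 3.64, 3.05 and 3.06 in 8, 7 and 9 members.

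The 250 bases before the start of the called genes were searched on both strands for the E-box CACGTG, bound by CLOCK and BMAL1, and the D-box TTATGTAA, bound by DBP, HLF and TEF. RefSeq promoters (build GRCm38.p6) were found for 22 of the 31. The E-box was in 2 of the 22, Bhlhe41 and Tef, and in 6.05% of all 27025 promoters, and the D-box was in 2, Per3 and Cldn10, and in 0.862% of all. The promoters of Per3 and Tef are shown as examples of each motif in a called clock gene, 5′ to 3′ on the gene's strand, with the motif in capitals. Per3 holds the D-box at 2 places (chr4:151044666-151044915, minus strand) and Tef the E-box at 1 (chr15:81802423-81802672, plus strand).
Per3: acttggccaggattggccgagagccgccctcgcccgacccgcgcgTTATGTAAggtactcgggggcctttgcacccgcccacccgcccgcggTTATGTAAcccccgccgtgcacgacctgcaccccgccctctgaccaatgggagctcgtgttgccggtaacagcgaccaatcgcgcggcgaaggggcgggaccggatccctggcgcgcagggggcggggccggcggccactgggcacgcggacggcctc
Tef: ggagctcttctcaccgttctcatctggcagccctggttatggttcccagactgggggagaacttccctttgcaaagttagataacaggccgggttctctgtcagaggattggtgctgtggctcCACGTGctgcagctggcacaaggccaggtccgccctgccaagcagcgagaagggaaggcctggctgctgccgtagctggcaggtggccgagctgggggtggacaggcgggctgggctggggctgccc

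Both peaked in daytime in the members, Per3 at 10.6 h and Tef at 11.3 h. Motif matches are a description of these letters only.

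Whether the rhythm itself differed between the classes was tested within libraries by edgeR, with the library as a block. Of 10939 genes, 6 (0.0548%) were called: Mmp3, Dmkn, Cxcl2, Ccl2, Arhgap20 and Ndrg1. With the replicate number, which marks the collection day in the labels, as a further block, 20 genes were called, these 6 among them. The calls did not hold without the 5% of cells with the most UMIs in each library, where 0 genes were called by edgeR and 570 had an unadjusted p under 0.05. That setting also leaves 9 libraries, since the members of ZT14 replicate 1 drop under 10. Without ZT14 replicate 1 alone, 17 were called, the 6 among them, and without replicate 3 of ZT2, 10.

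Ccl2 (chromosome 11, 82035571 to 82037453, plus strand), a chemokine that attracts monocytes, was lower in the members at ZT2 and ZT22 than at ZT10 and ZT14. It was at 0.082 and 0.406 UMIs per 10000 at ZT2, 2.86 and 10.0 at ZT10, 11.6, 1.95 and 7.17 at ZT14, 6.31 at ZT18, and 0.0735 and 0.482 at ZT22. Within these 10 libraries, the members at ZT2 and ZT22 did not overlap with those of the other times. In the other fibroblasts it lay between 2.71 and 12.3, with the highest value at ZT22. The amplitude was 2.59 (SE 0.45) in the members, with a peak at 13.3 h and a rhythm called in 3 of 10 fits with 1 library left out, and 0.21 in the others, and the edgeR adjusted p of the difference was 0.030. Ccl2 UMIs were in 60 of 252 members, and single cells held much of the high libraries: 300 of 351 UMIs in ZT14 replicate 1, 209 of 264 in ZT18 replicate 3, the only ZT18 library of the fit, and 160 of 276 in ZT14 replicate 3. In libraries outside the fit, the members had 0, 0.477 and 0.0828 at ZT6, 2.95 in ZT10 replicate 3, and 0.303 and 0.0718 in replicates 1 and 2 of ZT18, which held 5 and 8 members. The difference was not called without replicate 1 of ZT2 (edgeR adjusted p = 0.095), replicate 3 of ZT2 (0.068), replicate 3 of ZT14 (0.083) or replicate 2 of ZT22 (0.052), nor by DESeq2 (0.089).

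Mmp3 (chromosome 9, 7445822 to 7455975, plus strand), a matrix-degrading enzyme, was at 2.38, 0.596 and 0.519 UMIs per 10000 in the members at ZT14 and at 0.0325 to 0.224 in the other 7 libraries. In the other fibroblasts it lay between 1.73 and 4.27, and the edgeR adjusted p of the difference was 0.0014. With 1 library left out it could be tested for a rhythm in the members in 7 fits and was called in 1, without replicate 3 of ZT18 (edgeR adjusted p = 0.028). It was seen in 47 members with 247 UMIs, and 1 cell held 48 of the 72 UMIs of ZT14 replicate 1. Over all 18 libraries the difference was not called (edgeR adjusted p = 0.30). Among the libraries outside the fit, Mmp3 was at 4.14 in ZT6 replicate 3 and had 33 of 186326 member UMIs in ZT10 replicate 3. Replicates 1 and 2 of ZT18 had 0. For Cxcl2, a chemokine for neutrophils, 1 cell of ZT14 replicate 1 held 324 of 372 UMIs, and for Dmkn 1 cell of ZT2 replicate 3 held 26 of 30. Without ZT2 replicate 3 the edgeR adjusted p for Dmkn was 0.973, and without replicate 1 of ZT22 that for Cxcl2 was 0.054. The members of ZT14 replicate 1 were at 10.8 for Cxcl2 and those of the other 9 libraries at 0 to 0.597.

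Arhgap20 (chromosome 9, 51765337 to 51853856, plus strand) cycled in both classes with close peaks, 23.99 h in the members and 23.8 h in the others, but with amplitudes of 1.77 and 0.76. It was at 2.25 and 1.67 UMIs per 10000 in the members at ZT2 and 0.033 to 0.390 at ZT14, and at 2.24 and 2.43 and 0.649 to 1.19 in the others (edgeR adjusted p of the difference 0.030). The levels of the classes overlapped at ZT2 and not at ZT14. The call was lost without replicate 1 of ZT10 (0.060), ZT2 (0.070) or ZT22 (0.083), replicate 3 of ZT14 (0.057) or replicate 2 of ZT22 (0.071). Ndrg1, a stress-responsive gene, was at 2.31 and 2.65 in the members at ZT22 and at 0.651 to 1.68 at the other times, while the other fibroblasts lay between 0.275 and 0.847 (edgeR adjusted p of the difference 0.041). No rhythm of Ndrg1 was called in the members (amplitude 0.36, edgeR adjusted p = 0.64) or in the other fibroblasts (0.47, 0.31). Outside the fit, the members were at 2.69 in ZT2 replicate 2 and 3.41 in ZT18 replicate 1. The call was lost with any of 7 of the 10 libraries left out, all but the 3 of ZT14, with adjusted p from 0.051 to 0.143. Ndrg1 was also at 2.41 in the Angptl7 cells against 0.744 in the Thbs4 cells, and Thbs4 was at 0.221 and 1.82 in the members of ZT22 against 2.21 to 10.6 at the other times. The part of this mixture of cells in the Ndrg1 result was not tested.

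**Figure D5:**
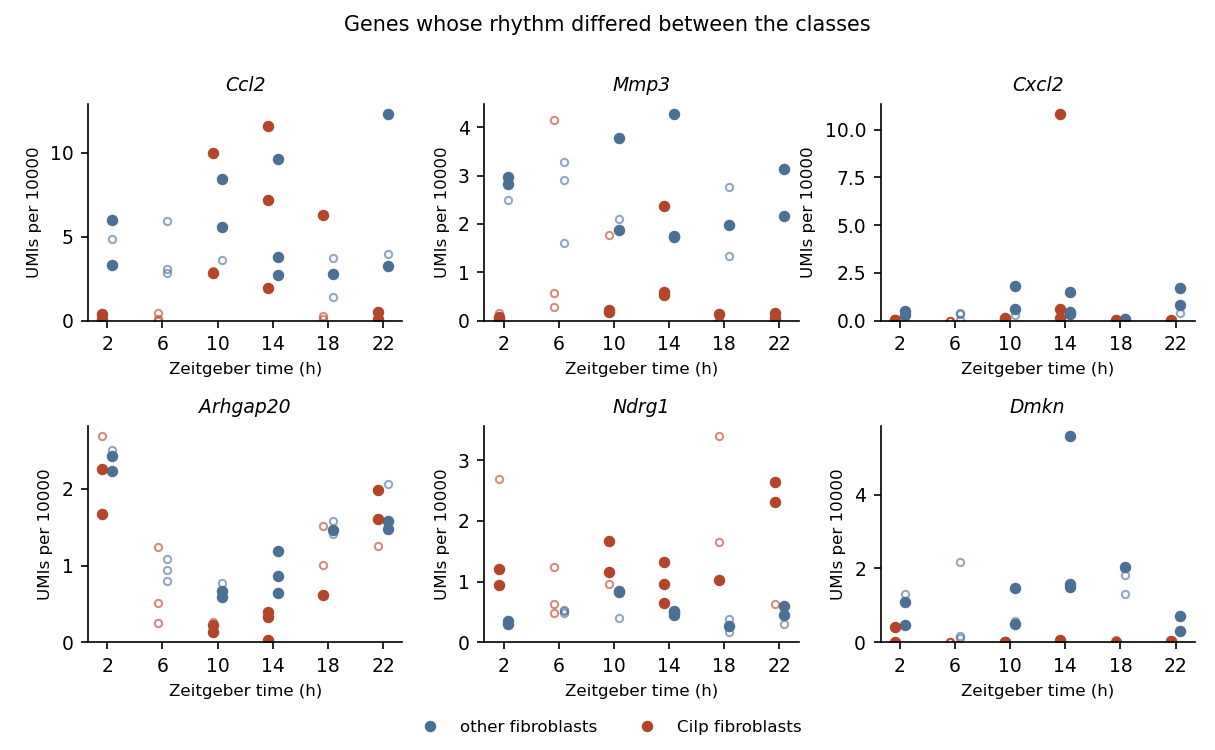
Levels in UMIs per 10000 (y axis) against zeitgeber time in hours (x axis) for the 6 genes whose rhythm differed between Cilp fibroblasts (red) and other fibroblasts (blue); 1 point is 1 library, filled where used in the fit and open where under 10 members were found. Ccl2 in the members is under 0.5 at ZT2 and ZT22, and the Cxcl2 point at 10.8 rests mostly on 1 cell.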

How the data were processed

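Dermal cells of 18 mice were profiled by droplet 3' single-cell RNA sequencing, 1 library per mouse. Per the study's methods and the processing notes, the authors aligned reads to mm10 and counted UMIs with Cell Ranger 3.1.0, and they deposited raw UMI counts per gene and barcode, with no doublet removal stated. No doublet caller was run here, and leaving out the 5% of cells with the most UMIs per library was an alternative. The members and gene lists were chosen with earlier results of these data known.

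UMIs were summed per library over members and over other fibroblasts. Levels are UMIs per 10000. Members against others is a description over libraries with 10 or more members. Named genes were the rule's and marker genes, the 20 highest and 10 lowest ratios among genes of 2 or more UMIs per 10000 with the same sign in every library, the 10 rhythm calls with the smallest adjusted p, clock genes and examples of each list. Rhythms were fitted with edgeR 4.0.16 (quasi-likelihood, TMM, filterByExpr) in R 4.3.3, in place of the study's JTK_Cycle, with DESeq2 1.42.0 as an alternative. The fit has no ZT6 library. SE values are jackknife errors over the 10 libraries. Tested on simulated data, the member fit found 82 of 100 rhythms of log2 amplitude 1 and 100 of 100 of amplitude 2, with 8 false calls among 5186 genes, and the difference fit 52 and 100 of 100, with 13 among 5469. The simulation put rhythms only in genes above 0.5 UMIs per 10000. It drew sums per library, not cells, and gave all genes of both classes the same dispersion, estimated from the members. These rates do not cover lower genes such as Arntl, or genes with many UMIs in 1 cell.

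The replicate number in the titles follows the day of collection. Tables of the study number the hours of ZT2 and ZT6 a day later than the titles do, so for these times the day behind the number is uncertain, and the titles were used. Deviations from the time means correlated between same-numbered libraries at a median of 0.13 in the members (10 pairs, 6 above 0.1) and 0.052 in the other fibroblasts (45 pairs). Between libraries of different number and time the medians were -0.097 (20 pairs) and -0.036 (90 pairs). The main rhythm fit has no term for the replicate number, and the fit with it as a block is an alternative. Gene positions are from GENCODE M21 (GRCm38, the same build as mm10). Alternative settings for the rule, libraries, filters, normalization, pseudocount and tool were run and are given at the end. Some single-gene results are not reported here.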

Additional observations from a re-analysis of the deposited data

Results flagged for a closer look

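The 6 genes whose 24 h rhythm differed between Cilp fibroblasts and other fibroblasts were Mmp3 (edgeR adjusted p = 0.00143), Dmkn (0.0283), Cxcl2 (0.0283), Ccl2 (0.0302), Arhgap20 (0.0302) and Ndrg1 (0.0412). By DESeq2, 3 of these 6 were called among 15. One cell each held 87.1% of the members' Cxcl2 UMIs, 86.7% of Dmkn and 19.4% of Mmp3, while no cell held more than 3.26% of Arhgap20. No group had more than 3 libraries, so single libraries could not be screened as outliers within a group.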

How the results depend on the processing

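The number of genes with a called rhythm in the members, 31, was 70 with DESeq2, 54 with all 18 libraries, 15 with the 5 libraries of 20 or more members, 120 with the looser and 104 with the stricter rule (4 libraries), 15 with cells thinned to 10000 UMIs, 340 without a filter on low counts, 14 with zeitgeber times as groups, and 13 to 36 with 1 library left out. With DESeq2, 29 of the 31 were called, with all 18 libraries 21, and with thinned cells 10. Without the top 5% of cells by UMIs, 25 genes were called, 20 of them among the 31. For the difference in rhythm, the 6 calls became 15, 11, 61, 5, 79, 26 and 142 in the same order without the groups, 11 with RLE factors, 0 without the top 5% of cells and 5 to 17 with 1 library left out. Mmp3 turned its direction with the looser rule (adjusted p = 0.997, edgeR) and Dmkn without the top 5% of cells (0.994). With the replicate number as a block, 29 genes were called in the members, 24 of them among the 31, without Prrx2, Dhrs3, Peg3, Insr, Actn1, Ppl and Fbn2, and 20 for the difference, and the permutation p for the share was 0.075. The share's p was 0.0419 with the looser rule and 0.0455 to 0.212 with 1 library left out. Genes higher in the members, 205, were 135 over all 18 libraries and 129 with a pseudocount of 0.5, and genes lower, 184, were 121 with that pseudocount and 293 without the level filter, and with 1 library left out they were 200 to 224 and 182 to 190. In the other fibroblasts, 1628 genes were called over all 18 libraries, an alternative chosen after seeing the data. Alternatives were run for the ratios of 33 genes (the 20 highest, the 10 lowest and the 3 collagens of the rule): none changed direction, 574 values moved by less than the SD over libraries and 53 by more. Single-gene alternatives for the rhythm in the members were counted for 20 genes, not for all 31 called, and 29 of them ended a call. For the 6 genes of the difference, 40 ended a call, beside the 2 reversals above. The cause of these changes was not tested. Depth limits the members: 202 cells in 10 libraries, and genes of low level such as Arntl rest on few UMIs.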
